A study of Mus musculus with 2 samples.

Results

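The members described here are small RNA sequences of 31 to 37 nt with A at base 10 and a base other than T at base 1, the form known for secondary piRNAs. Sequences that match a GENCODE M21 microRNA or structural RNA gene in sense, or more than 20 genes on a strand, were left out. Of the 22794309 distinct sequences in both libraries, 8059220 had 31 to 37 nt, 8046672 of these passed both filters, and 1031525 were members. The Tdrkh-/- library held 747475 of them with 4358295 reads, the Tdrkh+/- library held 327413 with 737571 reads, and 43363 were in both. The knockout animals lack exons 2 to 4 of both copies of Tdrkh, which include the start codon, and the heterozygous animals lack them in 1 copy. All mice were on a mixed C57Bl6/129 background and were 11 days old, and each library came from 5 pooled pairs of whole testes. With 1 library per genotype there was no replicate check, so no test was run, and differences between the genotypes and between the 2 libraries cannot be told apart.

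piRNAs are small RNAs bound by PIWI proteins, which silence transposons in the germline. Primary piRNAs are made from long single-stranded precursors and mostly begin with U, read as T in the libraries. In the ping-pong cycle a PIWI protein guided by such a piRNA slices a complementary transcript opposite guide bases 10 and 11, so the 5′ end of the new, secondary piRNA overlaps its guide by 10 nt and A at base 10 of the new piRNA faces the guide's first U. A PIWI-bound intermediate is longer than the mature piRNA until its 3′ end is trimmed. Tdrkh sits on the outer face of mitochondria, carries Tudor and KH domains and binds PIWI proteins.

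Reads of 24 to 37 nt matched the genotype labels. The excised stretch of Tdrkh, chr3:94422802-94424690 (GRCm38), held 0 sense reads in Tdrkh-/- and 17 in Tdrkh+/-, while the rest of the gene held 677 and 1080. The libraries held 60973266 and 43172204 reads, of which 2482747 and 2359299 were microRNA reads of 18 to 25 nt. Levels are given per microRNA read of the same library, and ratios are Tdrkh-/- over Tdrkh+/- with an exact 95% interval. PCR reads carry no molecular identifiers here and are not independent molecules, so intervals reflect counting error alone. In whole testis, fewer cells of a type and less RNA per cell cannot be told apart.

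The most abundant members show what the class holds in each library, and they are printed 5′ to 3′ with the first 10 bases in capitals, the stretch that a 10 nt partner would cover. In Tdrkh-/- the 6 most abundant members with no exact match in an annotated untranslated region were as follows.
seq1: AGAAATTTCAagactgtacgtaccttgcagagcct
seq2: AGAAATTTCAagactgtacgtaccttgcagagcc
seq3: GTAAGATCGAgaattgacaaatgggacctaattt
seq4: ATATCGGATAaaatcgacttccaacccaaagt
seq5: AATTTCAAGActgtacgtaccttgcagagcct
seq6: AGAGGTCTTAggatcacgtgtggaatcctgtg

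The leading member, seq1, had 392076 reads in Tdrkh-/- and 1413 in Tdrkh+/-, with a ratio of 264 (250 to 278). It alone carried 8.996% of the member reads of Tdrkh-/- and 0.192% of those of Tdrkh+/-. Its form without the last base, seq2, had 34516 and 175 reads, and seq5, which starts 3 bases further in, had 14141 and 76. None of these 3 matched a transcript exactly. The nearest transcript stretch was antisense in the lincRNA gene Gm49116, chr15:14480891-14480925, with C14T and C28T as the differences from seq1 (positions from its 5′ end, the base of seq1 first). All reads of 31 to 37 nt that begin with the first 24 nt of seq1 numbered 453208 in Tdrkh-/- and 1940 in Tdrkh+/-, against 5795 and 1407 of 24 to 30 nt. The long forms of this 5′ end were thus high in the knockout library while its piRNA-size forms were the majority in neither.

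The other members of this set were high in Tdrkh-/- as well. For seq3 there were 17190 reads in Tdrkh-/- and 73 in Tdrkh+/-, with a ratio of 224 (178 to 286). Over its first 32 bases it matched the unprocessed pseudogene Gm17131 in sense, chr5:127881561-127881594, with T33G and T34A as the differences at its end. The pseudogene also held seq4 in sense at chr5:127878783-127878814. That sequence had 14472 and 97 reads, a ratio of 142 (116 to 175), and matched 14 genes in sense and 2 antisense. For seq6 there were 12768 and 91 reads, a ratio of 133 (109 to 166), with 4 sense hosts and 1 antisense host, among them 4930470H14Rik at chr17:4082370-4082401. A further 8 members ranked among these 6 but touch an untranslated region of some transcript, and their letters are not printed. Their ratios ran from 73.9 to 406.

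The leading members of Tdrkh+/- were other sequences, apart from seq1, which ranked among its 6 as well.
seq7: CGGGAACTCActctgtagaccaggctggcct
seq8: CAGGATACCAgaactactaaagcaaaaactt
seq9: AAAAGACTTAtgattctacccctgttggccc
seq11: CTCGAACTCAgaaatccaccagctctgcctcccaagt
seq12: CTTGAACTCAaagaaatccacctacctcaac

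The member with most reads in Tdrkh+/-, seq7, had 4608 reads there and 0 in Tdrkh-/-, so it was at least 1616-fold lower in the knockout library against a floor of 3 reads. It matched the antisense gene D130020L05Rik in sense at chr12:101088237-101088267 and no other gene. The zero held for this exact sequence and not for its relatives. Reads of 18 to 40 nt with the same first 18 nt numbered 1190 in Tdrkh-/- and 10116 in Tdrkh+/-, and those 1 base away in that stretch 9737 and 13569. The member seq8 had 1321 and 4332 reads and seq9 had 32 and 2627, 86.4-fold lower in Tdrkh-/-. The member seq8 differed from a sense stretch of Hexdc, chr11:121206244-121206274, by G3A, and seq9 had no transcript stretch within 4 mismatches. The members seq11 (776 and 1374 reads) and seq12 (198 and 1204 reads) also lacked an exact match. Of the 5 sequences, 4 were of 31 nt, the shortest length in the window, while the 6 of Tdrkh-/- had 32 to 35 nt. A further 7 members in this range touch untranslated regions. Among them is a 31 nt sequence of the olfactory receptor gene Olfr877 with 0 and 3118 reads, whose first 18 nt had 152 and 4864.

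Members as a class were higher in Tdrkh-/-, and by reads their ratio was above that of all long reads. There were 1.76 member reads per microRNA read in Tdrkh-/- and 0.313 in Tdrkh+/-, giving a ratio of 5.62 (5.60 to 5.63). All eligible reads of 31 to 37 nt had a ratio of 4.47 (4.46 to 4.47). Among the 3 other classes made by bases 1 and 10, the ratio was 5.09 with both T at base 1 and A at base 10, 4.30 with T alone and 3.06 with neither. Without the 5′ end of seq1 the ratio of members was 5.04, below that of the class with both. With each member sequence counted once it was 2.17, and in members of exactly 1 gene it was 3.10. Reads of the member type but of 24 to 30 nt went the other way, with a ratio of 0.748 (0.746 to 0.749). Members made up 14.5% of eligible long reads in Tdrkh-/- and 11.5% in Tdrkh+/-, but 12.4% and 13.8% of distinct sequences, so their order turned when each sequence was counted once. Among members in exactly 1 gene the share of reads also turned, with 6.68% and 8.92%. Each distinct member had 5.83 reads on average in Tdrkh-/- and 2.25 in Tdrkh+/-.

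A at base 10 was more frequent in long reads without a 5′ T in both libraries. Of the long reads without T at base 1, 59.2% had A at base 10 in Tdrkh-/- and 44.1% in Tdrkh+/-, against 37.9% and 34.01% of those with T. Over distinct sequences without T at base 1 these shares were 44.4% and 40.3%. The first base of member reads was A in 67.4%, C in 21.3% and G in 11.2% of Tdrkh-/- reads, and A in 37.8%, C in 50.4% and G in 11.8% of Tdrkh+/- reads.

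A few 5′ ends carried much of the class in the knockout library. The 10 most abundant sequences held 14.9% of member reads in Tdrkh-/- and 3.58% in Tdrkh+/-, and the 1000 most abundant held 43.8% and 20.3%. Taken by their first 24 nt, the 10 leading 5′ ends held 25.2% and 5.50%. In the class with neither T at base 1 nor A at base 10 the 10 leading ends held 4.11% and 2.01%. Sequences read once held 11.5% of member reads in Tdrkh-/- and 31.3% in Tdrkh+/-. Without the 5′ end of seq1 members made up 13.2% of long reads against 11.5%.

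Of the member sequences with at least 20 reads over both libraries, 15345 of 18142 were at least 2-fold higher in Tdrkh-/-, which is 84.6%, and 1465 were at least 2-fold lower, which is 8.08%. The background over all other eligible sequences of 31 to 37 nt was 81.3% higher and 10.4% lower, and in the class with neither mark it was 79.4% and 9.87%. The shares of members were near these. Most distinct members were read in 1 library only. In Tdrkh-/- 94.2% of them, with 40.8% of member reads, were absent from Tdrkh+/-, and in Tdrkh+/- 86.8%, with 62.7% of reads, were absent from Tdrkh-/-. Most distinct sequences of the other classes were also read in 1 library only. In the class with neither mark 47687 were in both, of 936904 in Tdrkh-/- and 484421 in Tdrkh+/-. With T at base 1 and A at base 10 these were 100927 of 1516808 and 504973, and with T alone 189304 of 2846099 and 1063860. Among abundant members, absence from the other library was less common. Of 642 members with at least 500 reads in Tdrkh-/-, 23 had none in Tdrkh+/-, and for 21 of the 23 other reads with the same first 18 nt were there. Of 48 such members of Tdrkh+/-, 3 had none in Tdrkh-/-, and all 3 had such relatives. These counts of abundant members were not made for the other classes.

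Members were longer in Tdrkh-/-. Mean length was 34.1 nt (SD over reads 1.80) in Tdrkh-/- against 33.4 nt (SD 2.13) in Tdrkh+/-. In Tdrkh-/- the most frequent length was 35 nt with 25.7% of reads, and in Tdrkh+/- it was 31 nt with 27.2%. The ratio rose from 2.00 at 31 nt to 4.89 at 32 nt, 5.85 at 33 nt, 7.55 at 34 nt and 13.1 at 35 nt, and was 7.28 at 36 nt and 4.47 at 37 nt. Over all eligible reads it was 2.05 at 31 nt, 8.58 at 35 nt and 7.06 at 37 nt. The peak at 35 nt includes seq1, and without that sequence the ratio of members at 35 nt was 8.66 (8.60 to 8.73). The 8.58 over all eligible reads still includes seq1, so these 2 values are not a like comparison. Means of the class with neither mark were 33.9 and 33.3 nt. With T at base 1 they were 33.7 and 32.7 nt where base 10 was A, and 33.9 and 32.8 nt where it was not. Both classes with T at base 1 thus differed more between the libraries than members did.

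The same 5′ ends were read at piRNA size. Of member reads, 73.1% in Tdrkh-/- and 57.8% in Tdrkh+/- had their first 24 nt at the start of a 24 to 30 nt read of the same library. With starts moved 1 to 7 nt into the sequence, the median share was 48.6% and 38.8% and the highest 63.0% and 44.2%. The unshifted shares of the class with neither mark were 36.6% and 40.0%. With T at base 1 they were 67.7% and 74.0% where base 10 was A, and 58.7% and 70.2% where it was not. In Tdrkh+/- members were thus below both classes with T at base 1. Over distinct members the order of the libraries turned, with 32.6% and 35.9%. Member reads of Tdrkh-/- found their start among the piRNA-size reads of Tdrkh+/- in 74.1%, and those of Tdrkh+/- found theirs among the piRNA-size reads of Tdrkh-/- in 42.8%.

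Lengths could be compared at fixed 5′ ends. At the 2000 starts of members with at least 50 reads of 24 to 37 nt in each library, the median of the mean length was 31.5 nt in the knockout library and 29.4 nt in the other. The median difference was 1.47 nt (quartiles 0.41 and 3.01), and the mean was longer in Tdrkh-/- at 87.9% of the starts. The median share of reads of 31 to 37 nt was 70.0% and 21.8%. In the class with T at base 1 and no A at base 10 the median difference was 2.23 nt and 92.6% of starts were longer in Tdrkh-/-. The longer reads of Tdrkh-/- were thus seen in that class too. The libraries differed little in how sharply a start was cut. At starts with at least 50 long reads, a median of 54.9% of long reads in Tdrkh-/- (5239 starts) and 53.8% in Tdrkh+/- (1191 starts) had the most frequent long length of that start. For the class with neither mark it was 61.6% and 60.7%.

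Ends at a T in the transcript were more frequent in Tdrkh-/-. Among member reads placed on a transcript, the base after the 3′ end was T in 49.5% in Tdrkh-/- and 34.2% in Tdrkh+/-. The last base of these reads was T in 31.2% and 36.7%. In Tdrkh-/- the share with T next was 65.2% at 32 nt and 71.5% at 36 nt, and between 33.8% and 50.01% at the other lengths. In Tdrkh+/- it lay between 27.4% and 37.99% at all 7 lengths. The rise was seen in the other classes too, with 52.4% and 33.5% in the class with neither mark and 58.8% and 39.4% in the class with T at base 1 and no A at base 10. Member-type reads of 24 to 30 nt had T next in 46.8% and 27.7%. Directly at the next base, another read of the same strand began for 26.1% of member reads in Tdrkh-/- and 19.5% in Tdrkh+/-. The median over the other distances was 17.3% and 14.3%, and the highest was 22.1% and 18.2%, both at distance 6.

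Most member reads matched no transcript, 64.3% in Tdrkh-/- and 61.8% in Tdrkh+/-. Of these unmatched reads, 8.10% and 7.94% matched once the last base was taken off, and this base was T in 72.9% and 73.4%. The remainder was not placed, because no genome was used here. Where members did match, 14.0005% of all member reads in Tdrkh-/- and 26.9% in Tdrkh+/- were sense only, 2.79% and 2.43% antisense only, and 19.0% and 8.84% matched genes on both strands. The ratio was 2.92 (2.91 to 2.94) for sense only, 6.44 (6.34 to 6.54) for antisense only and 12.04 (11.9 to 12.1) for both strands. It also went with the number of hosts, from 3.10 (3.08 to 3.12) in exactly 1 gene to 5.95 (5.90 to 6.002) in more than 1 gene but at most 5 per strand, and 19.3 (19.1 to 19.6) in 6 to 20 genes on a strand. Before sequences in over 20 genes were removed the ratio of the class was 6.58, and that filter took 19.8% and 6.07% of reads.

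Among matched reads, sense reads of protein-coding genes made up 37.3% in Tdrkh-/- and 64.5% in Tdrkh+/-, and sense reads of pseudogenes 19.0% and 6.17%. Antisense reads of long noncoding genes were 9.03% and 3.95%. Within sense reads of messenger RNAs, 3′ untranslated regions held 63.2% and 55.3%, coding sequence 32.1% and 41.6%, and 5′ untranslated regions 4.77% and 3.10%. In the class with neither mark these regions held 57.005% and 46.5%, 39.6% and 50.3%, and 3.44% and 3.27%. Members thus lay less in coding sequence than that class in both libraries.

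Of 917 hosts with at least 200 member reads over both libraries, 753 were at least 2-fold higher in Tdrkh-/- by member reads, which is 82.1%, and 19 at least 2-fold lower, which is 2.07%. With each distinct sequence counted once, 245 of the 917 were higher, which is 26.7%, and 18 lower. By reads the median log2 ratio was 2.26 (quartiles 1.35 and 3.54). Genes by their other long reads gave a background of 80.3% higher and 0.977% lower, and 900 of the same hosts by their other long reads gave 88.7% and 0.333%. In these 900 the median log2 ratio was 2.25 by member reads and 2.54 by other reads, and member reads had the larger ratio in 363 (40.3%). The share of hosts higher by member reads was near that of genes by other long reads.

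The leading hosts differed in how much of their count came from sequences in several annotated genes. Places outside annotated transcripts were not searched. Member reads from sequences in 1 gene alone made up 99.9% in Gm29968, 91.9% in Olfr539, 76.1% in Gm37625 and 56.9% in D10Wsu102e, but 0.0399% in Gm26905 and 1.75% in Gm37158. Reads in several genes were divided equally, so each of the following values is a share of reads that other copies could hold. The lincRNA gene Gm26905 (chr8:58171435-58298866) had 44399 member reads in Tdrkh-/- and 689 in Tdrkh+/-, with a log2 ratio of 5.94 (5.83 to 6.05). The TEC gene Gm37158 on the Y chromosome, a type set aside for experimental follow-up, had 33414 and 433, a log2 ratio of 6.20 (6.06 to 6.34). Of member reads, 9.78% were sense in Gm26905 and 88.4% in Gm37158. The transcripts are related in opposite orientation, since 62.9% of the 31 nt words of Gm26905 occur in the reverse complement of Gm37158. The longest stretch without a stop codon was 1300 codons on the antisense strand of Gm26905 and 913 on the sense strand of Gm37158. Strand relative to the gene therefore did not give the strand relative to the shared element.

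Gm47578, Gm47031, Gm48416 and Gm37701 also shared over 50% of their 31 nt words with Gm37158 on one strand. These 6 transcripts share sequence, and reads in several genes were divided among them, so they are not 6 separate observations. In all 6 of them most member reads lay on the strand with the longer open stretch, a property looked up after the hosts were known. Over all 12 leading hosts this held for 8. The exceptions were D10Wsu102e, Noct, Gm42860 and Gm29968, all among the 6 other leading hosts. The log2 ratios of the 6 related transcripts ran from 5.77 in the processed pseudogene Gm48416 to 6.20 in Gm37158. By their other long reads the same 6 transcripts had log2 ratios from 5.63 in Gm47031 to 6.52 in Gm26905. In Tdrkh-/-, every class of long read in these transcripts lay mostly on the same strand as the members. In Gm37158, for example, reads with T at base 1 and no A at base 10 were 98.0% sense in Tdrkh-/- and 76.9% in Tdrkh+/-. In Tdrkh+/- the same held in each of these transcripts but Gm37701. Its members there were 1.49% sense, against 58.8% in the class with neither mark and 56.5% in that with T alone. In Gm48416 the class with T alone was 52.4% sense there, against 98.0% of members.

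In 2 other leading hosts members lay on the strand opposite to the other long reads. Noct, which encodes nocturnin, had 16410 and 3891 member reads, a log2 ratio of 2.00 (1.95 to 2.05), with 17.7% sense in Tdrkh-/- and 11.7% in Tdrkh+/-. Its reads with T at base 1 and no A at base 10 were 70.9% and 76.0% sense. The TEC gene Gm42860 (chr5:60803716-60807706) had 17023 and 2017 member reads, a log2 ratio of 3.004 (2.94 to 3.07), with 11.4% and 19.2% sense. Its reads with T at base 1 and no A at base 10 were 96.3% and 87.6% sense. In Noct, 5.34% of member reads came from sequences in 1 gene alone, and in Gm42860 69.5%. In Gm37625 (chr1:128084460-128089331), with 25735 and 2197 member reads, 16.6% and 9.94% of members were sense, and the T-starting class without A at base 10 was 1.62% and 2.02% sense.

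The host with most member reads was D10Wsu102e (chr10:83360221-83488505), a protein-coding gene with a transcript of 123179 nt, with 53577 and 10608 member reads. Its log2 ratio was 2.26 (2.23 to 2.29) by member reads and 2.36 by other long reads, and members were 74.4% and 63.5% sense. The lincRNA gene Gm29968 had 16956 and 135 member reads from 31 and 20 distinct sequences, a log2 ratio of 6.90 (6.65 to 7.15), almost all sense. Its member seq15, printed below, held 7323 and 34 of these reads. Reads with the same first 18 nt as seq15 numbered 795088 in Tdrkh-/- and 23934 in Tdrkh+/-, far more than the member reads of Gm29968. An exact match in this gene alone therefore does not show that these reads came from this place alone. The olfactory receptor gene Olfr539 had 15991 and 283, a log2 ratio of 5.75 (5.58 to 5.92), and 5144 and 288 other long reads.

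Hosts whose reads came almost wholly from sequences in 1 gene included strong ratios both ways. Among 429 hosts with at least 90% of member reads from such sequences, the median log2 ratio was 1.80. The highest were Olfr982, Gm29968, Olfr1322, Supt20, Vmn1r197 and Olfr362. Olfr982 had 442 member reads in Tdrkh-/- and 0 in Tdrkh+/-, at least 140-fold higher against a floor of 3 reads, all but 0.227% of them antisense. Supt20, which encodes a subunit of the SAGA complex, had 887 and 14.5, a log2 ratio of 5.91 (5.16 to 6.79). Vmn1r197, a vomeronasal receptor gene, had 1660 and 28.4 member reads from 43 and 22 sequences.

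The lowest were Olfr877, D130020L05Rik, Gm21269, Gm10505, Gm49794 and Timmdc1. Olfr877 had 0 and 3308 member reads and D130020L05Rik 4.5 and 4704.5, nearly all from the 31 nt sequences described above. By their other long reads these 2 genes were higher in Tdrkh-/-, with 30 against 2 reads and 53 against 5. The neighbouring noncoding genes Gm10505 (chr17:27325035-27344833) and Gm49794 (chr17:27354111-27367492) were low by all long reads. Gm10505 had 19.4 and 1274.5 member reads, a log2 ratio of -6.14, and one of -6.75 by other reads. Gm49794 had 47.5 and 1696.1, a log2 ratio of -5.25, and one of -6.52 by other reads. Gm21269, another lincRNA gene, had 0 and 210 member reads, at least 73.7-fold lower in Tdrkh-/-, and a log2 ratio of -6.38 by other reads. Timmdc1, which takes part in assembly of respiratory complex I, had 22.3 and 397 member reads, a log2 ratio of -4.25, but one of 2.29 by other reads. Tdrkh itself had 27 and 10.5 member reads.

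Members in gene groups of known function lay mostly in sense. Over the 7050 genes with at least 20 member reads, the median log2 ratio was 1.45, with 64.5% at least 2-fold higher and 3.08% lower. Of 25 piRNA pathway genes 15 were measured, with 8 higher, 0 lower and a median of 1.09. Piwil2, a PIWI protein gene, had 853 and 382 member reads, and Rnf17, a Tudor domain gene, 96 and 30. Of 92 ribosomal protein genes 62 were measured, with 32 higher, 1 lower and a median of 1.09. Of 102 histone genes 40 were measured, with 22 higher, 1 lower and a median of 1.08. Hist1h1a had 470 and 334 reads and Hist1h3a 385.5 and 170.5. Zinc finger genes had 174 measured of 400, with 121 higher, 2 lower and a median of 1.69. Zfp781 had 3885 and 20.4 reads, none from a sequence in 1 gene alone, and Zfp369 had 3217 and 60.6.

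Cell type markers were read as members at low counts. Of 14 spermatogonial markers 10 were measured, with 9 higher, 0 lower and a median of 1.47. Lin28a, which encodes an RNA-binding protein of undifferentiated cells, had 128 and 17 reads, and the transcription factor gene Foxo1 133 and 41.5. Of 14 early meiotic genes 8 were measured, with 2 higher and a median of 0.70. The synaptonemal complex gene Sycp1 had 131 and 67 reads and the cohesin gene Stag3 79 and 29. Of 10 Sertoli markers 3 were measured, with 0 past 2-fold and a median of 0.16, with 33 and 28 reads for Sox9 and 35 and 23 for Clu. Of 5 Leydig markers 1 was measured, Star with 142 and 63 member reads, while Cyp11a1 had 0 and 11, and of 4 peritubular markers 2, Myh11 with 105 and 53 and Acta2 with 56 and 28. A part of these reads was antisense, since 63.9% of the member reads of Foxo1 in Tdrkh-/- and 76.5% of those of Lin28a in Tdrkh+/- were sense. The part of these cell types in the other differences was not tested.

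More member reads had an opposite-strand partner at an overlap of 10 nt than at any other of 1 to 24 nt, before the partner's first base was held fixed. Partners were sought among reads of 24 to 37 nt of the same library, on 1 transcript per gene, for the 1529142 and 266940 member reads placed there. A partner at 10 nt was present for 50.7% of member reads in Tdrkh-/- (50.6 to 50.8) and 19.8% in Tdrkh+/- (19.7 to 19.96). The median over other overlaps of 1 to 24 nt was 23.02% and 10.2%, and the highest was 36.5% at 21 nt and 13.2% at 6 nt. In the class with neither mark 11.9% and 4.20% had a partner at 10 nt, but its partners there cannot begin with T by the definition of the class, so the contrast follows in part from the rule. Overlaps weighed by the product of read counts gave another order. In Tdrkh-/- 37.95% of them were of 10 nt and 12.2% of 11 nt, and in Tdrkh+/- 18.9% were of 10 nt and 31.8% of 11 nt, the most frequent overlap there. Member-type reads of 24 to 30 nt had a partner at 10 nt in 51.9% and 21.1%.

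This preference was smaller once the first base of the partner was held fixed. A at base 10 makes every 10 nt partner begin with T, the most frequent first base in these libraries. When each other overlap of 2 to 24 nt was counted only for members with A at the facing base, so that those partners began with T as well, the median was 31.2% in Tdrkh-/- and 14.2% in Tdrkh+/-. The highest was then 62.4% and 20.6%, both at 21 nt and both above the value at 10 nt. Over distinct members the share at 10 nt was 10.1% and 7.88%, against medians of 8.17% and 6.77% and highest values of 10.5% and 7.86%. Thus 10 nt was above the median in both libraries but stood out from all other overlaps in neither by reads. This comparison was added after the data were seen.

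Sequences in several genes carried most of these pairs. When members and partners were both limited to sequences in exactly 1 gene, 6.57% of member reads in Tdrkh-/- and 3.51% in Tdrkh+/- had a partner at 10 nt. Members matched antisense to a gene had one in 56.2% and 54.9%, and those matched in sense in 50.1% and 16.5%. Members matched on both strands count in both sets, which held 927727 and 1401838 placed reads in Tdrkh-/-. The median over other overlaps was 29.0% and 28.6% for antisense matches and 21.4% and 8.51% for sense matches. For members with an antisense match the libraries were thus close at 10 nt and by this median alike. Over distinct members the difference between libraries was small, 10.1% against 7.88%.

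The unmatched members could be examined without transcripts by the letters alone. For 23.4% of member reads in Tdrkh-/- and 8.91% in Tdrkh+/-, at least 1000 reads of 24 to 37 nt began with the reverse complement of the first 10 bases. The same search 1 to 14 bases further in, for members with A at the facing base, gave a median of 3.17% and 2.80%. The highest were 34.7% at 13 nt and 19.2% at 14 nt, again above the value at 10 nt. In members without a transcript match the shares at 10 nt were 19.98% and 10.8%. A stretch of 10 bases can match by chance, so these shares are not counts of pairs.

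Members were ranked by the product of member and partner reads at 10 nt, scaled by microRNA reads and summed over both libraries. The 4 printable members with the highest values were as follows.
seq13: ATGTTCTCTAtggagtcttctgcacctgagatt
seq14: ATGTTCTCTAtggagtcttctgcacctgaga
seq15: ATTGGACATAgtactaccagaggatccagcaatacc
seq16: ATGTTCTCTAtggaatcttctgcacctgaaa

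The members seq13 and seq14 are lengths of one 5′ end, with 2280 and 1760 reads in Tdrkh-/- and 4 each in Tdrkh+/-. They matched AC160336.1 in sense, the longer at chr14:44633244-44633276, and 3 genes antisense. Their 10 nt partners comprised 28 sequences with 18476 reads in Tdrkh-/- and 23 sequences with 840 reads in Tdrkh+/-. The most abundant partner had 32 nt in Tdrkh-/- (3771 reads there, 125 in Tdrkh+/-), while that of Tdrkh+/- had 28 nt (387 reads there, 596 in Tdrkh-/-). The member seq16 shares its first 14 bases with seq13, lies antisense in Gm47103 at chr9:105086379-105086409, and had 1329 and 9 reads. Its partners had 5665 and 160 reads. The member seq15 lies in Gm29968, chr12:26237997-26238032, with 7323 and 34 reads and partners with 1050 and 242. Partners of these 4 touch untranslated regions, so their letters are not printed. A further 5 members ranked among the 4 are left out for the same reason, and all 5 are lengths of 1 start shared by Gm26905 and Gm37158.

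Not every abundant member had abundant partners. For seq4, with 14472 reads in Tdrkh-/-, the 10 nt partners there were 5 sequences with 19 reads in all. One of them is printed to show the overlap, with its first 10 bases, the reverse complement of those of seq4, in capitals.
seq4: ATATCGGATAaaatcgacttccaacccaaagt
partner of seq4: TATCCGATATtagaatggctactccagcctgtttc

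This partner had 4 reads in Tdrkh-/- and 2 in Tdrkh+/-. For seq6, with 12768 reads in Tdrkh-/-, the partners there had 234 reads. Partners were longer in Tdrkh-/- as well. The reads that served as 10 nt partners had a mean length of 31.98 nt in Tdrkh-/-, against 28.3 nt in the other library, with 30.3% and 80.0% of 24 to 30 nt and most frequent lengths of 35 and 26 nt. All placed reads with T at base 1 and no A at base 10 had means of 32.1 and 28.3 nt and 30.1% and 84.6% at piRNA size, so partners were close to their class in length.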

How the data were processed

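Small RNAs were sequenced from 1 Tdrkh-/- and 1 Tdrkh+/- library. The authors deposited raw read counts of distinct sequences of 18 to 40 nt. Per the labels' protocols, RNAs were gel-purified and read on a Genome Analyzer II after an Illumina small RNA kit. The submitters' processing notes name Bowtie and mm9. Any trimming of adapters, and the version of each tool, was not given in the sources used here.

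Sequences were matched exactly on both strands to GENCODE M21 transcripts (GRCm38) with code in Python 3.11.15, NumPy 2.4.6, SciPy 1.17.1 and Numba 0.67.0. The matcher was checked on 100 sequences against a string search, with 0 differences. Coordinates are GRCm38. Reads in several genes were divided equally. Shares carry 95% Wilson intervals where given and ratios exact conditional binomial intervals. A count of 0 was set to 3 reads for a ratio.

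Named hosts are the 12 with most member reads, the 6 highest and 6 lowest ratios among hosts with at least 200 member reads and 90% from sequences in 1 gene, Tdrkh, and 2 leading members of each list. Those of 1 list are not reported here. Named sequences are the 6 most abundant of each library and the 4 with the highest product of member and partner reads at 10 nt. They have no exact match in an untranslated region or in a transcript of chromosome 18. For those without any transcript match, the place could not be checked, because no genome was used. The members, lists and rules were chosen with earlier results of these data known. The calculation of host ratios was tested on simulated data (Poisson, 917 hosts, 200 changed). A call past 2-fold was made for all 100 hosts with a true 4-fold change, for 0 of 100 with a 1.5-fold change and for 0 of 717 with none. Poisson counts hold counting error alone, so this checks the calculation and not variation between libraries or from PCR. Alternatives counted each sequence once, dropped sequences read once, or used narrower lengths, fewer genes per sequence, scaling per read listed, other minimums and other partner lengths. Those added after seeing the data leave out the 5′ end of seq1, limit pairs to 1 gene, require T at the start of every partner, or search without transcripts.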

Additional observations from a re-analysis of the deposited data

Results flagged for a closer look

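Reads beyond the window were not used in the comparisons above. At 38 to 40 nt, sequences with A at base 10 and no T at base 1 had 1120816 reads in Tdrkh-/- and 258035 in Tdrkh+/-, above the 3 reads that a count of 0 allows. Per microRNA read the ratio was 4.13 (4.11 to 4.15). Reads of these lengths were not matched to genes, so neither filter on members was applied to them, and their ratio is not like that of members. The length window thus left out longer reads with the same bases at positions 1 and 10 in both libraries. The deposited sequences end at 40 nt, so still longer forms were not measured.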

How the results depend on the processing

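No paired analysis was possible because each genotype has 1 library. All values here are Tdrkh-/- over or minus Tdrkh+/-, without a test, and the causes of the changes were not tested. The ratio of members per microRNA read, 5.62, was 2.17 with each sequence counted once, 6.97 without sequences read once, 8.39 at 33 to 36 nt, 3.10 in 1 gene, 5.10 in at most 5 genes per strand, 5.04 without the 5′ end of seq1 and 4.18 per read listed. The difference in the share of members among long reads, 2.95 percentage points, turned to -1.39 with each sequence counted once and -2.23 in 1 gene, and was 4.11, 3.52, 2.45 and 1.67 without sequences read once, at 33 to 36 nt, in at most 5 genes and without that 5′ end. The difference in mean length, 0.705 nt, was 0.434 with each sequence counted once, 0.830 without sequences read once, 0.739 in 1 gene and 0.618 without that end.

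The share of matched reads that were antisense only differed by 1.44 points, and by 1.88, 1.15, 8.67 and 4.70 with each sequence counted once, without sequences read once, in 1 gene and in at most 5 genes. The share with T next differed by 15.2 points, and by 13.6, 14.6 and 19.4 with each sequence counted once, without sequences read once and in 1 gene. The share of 5′ ends at piRNA size differed by 15.3 points, turned to -3.33 with each sequence counted once, and was 8.997 without sequences read once and 12.3 without that end. The share with a 10 nt partner differed by 30.9 points, and by 2.20 with each sequence counted once, 26.6 with partners of at least 10 reads, 26.3 and 32.4 with partners of 24 to 30 nt and 31 to 37 nt, and 3.06 in 1 gene. The share of read-weighed overlaps at 10 nt differed by 19.0 points, and by 0.787 with distinct pairs and 22.8 in 1 gene.

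Of hosts, 753 were higher and 19 lower. With at least 50 reads 2452 of 3469 were higher and 75 lower, with at least 500 reads 333 of 375 and 8, and in 1 gene 447 of 554 higher. With each sequence counted once 245 of 917 were higher. Of member sequences, 15345 were higher and 1465 lower, with at least 10 reads 35286 of 42046 and 3506, and with at least 100 reads 3060 of 3456 and 209. Counts of 0 and 3 reads limit what single sequences show, and 31.3% of member reads in Tdrkh+/- came from sequences read once.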
